A study of Mus musculus with 5 samples.

Results

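The myeloid transcription factor genes *Spi1*, *Irf8*, *Gfi1*, *Klf4*, *Runx1*, *Irf4* and *Egr1* were chosen by symbol, 7 of the 21755 protein-coding genes of the autosomes and the X chromosome in the GENCODE annotation of GRCm38. CpG methylation at these genes was measured by whole-genome bisulfite sequencing (WGBS), in which an unmethylated cytosine is read as T and a methylated one as C, in blasts of acute myeloid leukemia (AML) sorted from mouse bone marrow. All 5 leukemias arose from marrow of C57BL/6J donor mice and carried *Cebpa*-/p30, with 1 *Cebpa* allele deleted and the other restricted to the short isoform p30 of this myeloid factor. They differed in *Tet2*, whose product oxidises methylcytosine and thereby helps to remove it. The gene was intact in 2 leukemias (*Tet2*+/+, libraries 23 and 24) and knocked out in 3 (*Tet2*-/-, libraries 5, 7 and 8). The deletions were made by *Mx1*-Cre, which recombines throughout the blood system after poly(I:C), in transplanted marrow of irradiated recipients. The sorted cells were live, donor-derived and negative for CD3, B220 and Ter119, so a level is an average over the non-lymphoid, non-erythroid cells of a marrow. A change within a cell type and a shift in the mixture of cells cannot be told apart. For each gene, calls of both strands were added over the promoter (1 kb on each side of the annotated gene start), the gene body, and 1 kb windows of the body and of the 50 kb upstream. The weighted methylation level, methylated calls as a percent of all calls, was compared between *Tet2*+/+ and *Tet2*-/- libraries.

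The libraries held 63111735 to 110752967 calls, or 2.96 to 5.19 per CpG dyad (the CpG of both strands). The whole-genome level was 67.3% and 62.3% in the *Tet2*+/+ libraries and 70.9%, 74.8% and 68.4% in the *Tet2*-/- libraries 5, 7 and 8, so each *Tet2*-/- library was above both *Tet2*+/+ libraries. Methylated calls made up 0.807% to 0.989% of mitochondrial calls, which carry little CpG methylation and were used as a measure of incomplete conversion. Within 500 bp of a coding segment of the last exon of *Tet2*, the *Tet2*-/- libraries held 0 calls and the *Tet2*+/+ libraries 49 and 71, a difference that goes with the labels. Within 500 bp of the longer coding segment annotated for that exon the *Tet2*-/- libraries held 15, 12 and 6 calls, against 144 and 183. The loss did not cover the whole gene: around its longest coding exon they held 416, 414 and 257 calls, against 327 and 306. Among marker genes, promoter levels lay between 55.4% and 90.6% for the 4 T cell genes and between 5.21% and 87.7% for the 7 myeloid genes, from 7.46% to 16.2% at *Mpo*, the myeloperoxidase gene, to 65.1% to 87.7% at *Csf1r*, the receptor gene of macrophage colony-stimulating factor. As group means, promoter levels were 24.4% to 80.1% for 4 B cell genes and 9.89% to 86.6% for 4 erythroid genes. For 4 genes of other tissues they were 15.1% to 85.7%. Promoter methylation is no measure of expression.

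In the annotation, *Spi1* (ENSMUSG00000002111.8) spans chr2:91082390-91115756 and *Irf8* (ENSMUSG00000041515.10) chr8:120736358-120756694, both on the plus strand, as do *Irf4* (ENSMUSG00000021356.10) at chr13:30749226-30766976 and *Egr1* (ENSMUSG00000038418.7) at chr18:34859823-34864984. On the minus strand lie *Gfi1* (ENSMUSG00000029275.18) at chr5:107716657-107726036, *Klf4* (ENSMUSG00000003032.8) at chr4:55527143-55532466 and *Runx1* (ENSMUSG00000022952.17) at chr16:92601466-92826149. Promoters held 13.5 dyads per kb at *Spi1*, 19.5 at *Runx1* and 27.5 at *Irf4*, and 45.5 to 89.5 at *Egr1*, *Irf8*, *Gfi1* and *Klf4*.

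*Spi1* encodes PU.1, an ETS factor that directs progenitors to the monocytic, granulocytic and lymphoid lineages according to its dose. IRF8 and IRF4 belong to the interferon regulatory factors, bind composite sites together with PU.1, and act in monocytes and dendritic cells and, for IRF4, also in lymphocytes and plasma cells. GFI1 is a zinc finger repressor needed for granulocytes, KLF4 and EGR1 are zinc finger factors linked to monocytic differentiation, and RUNX1 binds DNA with CBFB and is needed for the emergence of blood stem cells. Promoters rich in CpG usually lack methylation, whereas most CpGs between genes are methylated, and stretches of low methylation outside promoters often mark regulatory elements.

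Sequences are shown for the starts of 2 genes that contrast in CpG content, and for 2 windows in which the groups differed clearly, in the direction of transcription of the gene and with each CpG in capitals. *Runx1* is transcribed from a distal start, poor in CpG, and from a proximal start in a CpG island. The 300 bases at the distal start (RefSeq, GRCm38, chr16:92826025-92826324, minus strand) hold 2 CpGs, and those at the proximal start (chr16:92697280-92697579, minus strand) hold 35. The start of *Irf4* (RefSeq, chr13:30748983-30749282, plus strand) holds 11.
Runx1 distal start: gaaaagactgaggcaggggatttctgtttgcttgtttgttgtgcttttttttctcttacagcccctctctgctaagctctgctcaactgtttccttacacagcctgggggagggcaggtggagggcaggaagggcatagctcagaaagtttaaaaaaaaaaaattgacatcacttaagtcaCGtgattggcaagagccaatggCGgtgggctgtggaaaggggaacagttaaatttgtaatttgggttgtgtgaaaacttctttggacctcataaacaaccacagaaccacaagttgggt
Runx1 proximal start: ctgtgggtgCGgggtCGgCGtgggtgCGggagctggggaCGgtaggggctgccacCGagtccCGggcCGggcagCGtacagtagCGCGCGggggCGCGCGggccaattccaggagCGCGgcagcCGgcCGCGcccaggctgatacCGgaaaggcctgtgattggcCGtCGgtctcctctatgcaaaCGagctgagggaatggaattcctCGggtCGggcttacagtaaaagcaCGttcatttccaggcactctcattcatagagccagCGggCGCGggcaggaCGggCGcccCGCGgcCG
Irf4 start: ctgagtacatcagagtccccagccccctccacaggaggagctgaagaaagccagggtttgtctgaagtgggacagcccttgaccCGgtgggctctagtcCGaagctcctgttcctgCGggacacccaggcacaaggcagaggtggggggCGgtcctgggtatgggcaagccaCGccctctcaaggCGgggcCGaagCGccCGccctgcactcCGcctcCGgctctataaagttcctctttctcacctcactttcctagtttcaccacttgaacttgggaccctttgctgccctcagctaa
The next sequences are the 300 bases with the most CpGs in intergenic windows that gained methylation, 1 to 2 kb upstream of *Irf4* (chr13:30747491-30747790, plus strand, 8 CpGs) and 16 to 17 kb upstream of *Klf4* (chr4:55549063-55549362, minus strand, 7 CpGs).
Irf4 upstream window: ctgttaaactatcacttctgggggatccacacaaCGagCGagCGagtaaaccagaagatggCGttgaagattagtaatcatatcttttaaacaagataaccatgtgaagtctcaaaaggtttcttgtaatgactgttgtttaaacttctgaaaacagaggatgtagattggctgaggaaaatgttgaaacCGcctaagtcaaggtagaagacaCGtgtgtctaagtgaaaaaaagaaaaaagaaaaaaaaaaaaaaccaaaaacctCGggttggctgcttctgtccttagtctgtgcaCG
Klf4 upstream window: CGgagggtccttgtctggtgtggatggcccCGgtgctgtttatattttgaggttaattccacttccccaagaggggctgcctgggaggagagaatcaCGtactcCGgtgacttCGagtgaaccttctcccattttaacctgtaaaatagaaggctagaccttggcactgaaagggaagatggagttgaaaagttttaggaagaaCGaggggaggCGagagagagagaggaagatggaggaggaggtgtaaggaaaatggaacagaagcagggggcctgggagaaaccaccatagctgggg
In the stretch upstream of *Irf4* the level was 15.2% and 7.14% in the *Tet2*+/+ libraries and 40.9%, 76.2% and 47.1% in the *Tet2*-/- libraries 5, 7 and 8 (17 to 44 calls per library). In the stretch upstream of *Klf4* it was 37.8% and 8.57% against 79.1%, 84.1% and 57.9% (19 to 44 calls). The groups did not overlap in either of these, which were chosen for that difference. At the proximal start of *Runx1*, by contrast, levels were 0.735% to 2.19% in all 5 libraries (121 to 141 calls), and at the *Irf4* start 0% to 7.69%, where a level of 0% allowed up to 7.89% at this depth. The distal *Runx1* start had 2 to 8 calls, too few for a level. Both strands were searched for the letters TGTGGT, bound by RUNX factors, and GAGGAA, found in PU.1 sites. TGTGGT occurred 2 times at the distal start of *Runx1* and in none of the other 4 sequences. GAGGAA occurred 1 time in each of the other 4. Of 32851 RefSeq promoters of this length, 16.8% held TGTGGT and 28.3% GAGGAA, and a match of letters is not a binding site.

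None of the 7 promoters passed the test (edgeR's quasi-likelihood test over 19455 promoters, Benjamini-Hochberg adjusted p under 0.05), against 1.07% of all promoters (1.06% higher in *Tet2*-/-). Of the 7, 2 had an unadjusted p under 0.05, as had 18.1% of all promoters, and limma called 0, against 0.396% of all. The test compares separate leukemias. It takes the spread between mice in part from a trend over all regions, so a p-value need not follow the spread at a single region. The promoters of *Gfi1*, *Klf4* and *Runx1* were almost unmethylated in every library. *Gfi1* was at 0.654% and 0.439% in *Tet2*+/+ and 0.758%, 0.750% and 1.03% in *Tet2*-/- (456 to 800 calls, adjusted p = 0.699). *Klf4* was at 0.817% and 1.09% against 0.837%, 2.06% and 2.90% (345 to 824 calls, adjusted p = 0.50). *Runx1* was at 2.2% and 5.24% against 4.53%, 2.32% and 4.91% (163 to 302 calls, adjusted p = 0.998). The differences of group means at these 3 genes were 0.30, 0.98 and 0.20 points, where the median was 2.22 points higher in *Tet2*-/- over all promoters and 0.827 points higher over promoters with a level under 20%.

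The promoters of *Spi1* and *Irf8* were also low, with overlapping groups. *Spi1* was at 3.39% and 11.9% in *Tet2*+/+ and 9.23%, 12.1% and 8.08% in *Tet2*-/- (99 to 207 calls, adjusted p = 0.723). *Irf8* was at 5.97% and 9.28% against 8.26%, 10.9% and 11.6% (251 to 658 calls, adjusted p = 0.572). The gene start of *Spi1* in the annotation is that of its longest transcript, 13706 bp upstream of the start usually given for PU.1 and near the region of its known distal upstream element. Around that second start the level was 20.5% and 18.9% in *Tet2*+/+ and 28.8%, 33.6% and 21.8% in *Tet2*-/-, a difference of 8.39 points, or 1.87 after subtraction of the genome-wide level of each library. The groups did not overlap, as was found in this direction at 32.8% of all promoters.

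*Irf4* had the highest promoter level of the 7 genes in *Tet2*-/-, and the only promoter difference above 10 points. It was at 28.5% (95% Wilson interval 23.3% to 34.3%) and 15.9% (11.9% to 21.0%) in *Tet2*+/+. In *Tet2*-/- it was at 40.1% (35.5% to 44.8%), 38.5% (33.6% to 43.7%) and 40.9% (35.2% to 46.9%), where intervals cover counting error only. The difference was 17.6 points (22.2% ± 8.85, SD, n = 2, against 39.8% ± 1.22, n = 3). The exact permutation p was 0.1, the smallest that 10 splits of 5 libraries allow, and edgeR's adjusted p was 0.141. Without 1 library the difference was 11.4 to 23.9 points, lowest without library 24, and edgeR's adjusted p 0.13 to 0.728. The difference was larger in the 1 kb upstream of the start, at 29.0% and 10.1% against 49.3%, 50% and 42.9% (edgeR adjusted p = 0.0553 as a window). The 1 kb downstream was at 27.9% and 23% against 31.5%, 30.4% and 38.2% (edgeR adjusted p = 0.65). With 2000 bp on each side of the start, *Irf4* passed the test (edgeR adjusted p = 0.0428), the single case among the 7 genes at a width at which 2.57% of all promoters passed.

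*Egr1*, an immediate early gene, was the single gene whose promoter level was lower in every *Tet2*-/- library, a pattern seen at 4.05% of all promoters. It was at 19.5% and 15.8% in *Tet2*+/+ and 8.62%, 11.1% and 5.88% in *Tet2*-/- (174 to 606 calls), a difference of -9.14 points (edgeR adjusted p = 0.158). Neither side of the start showed it alone. The upstream 1 kb was at 49.3% and 67.2% against 62.7%, 61.5% and 41.7%, and the downstream 1 kb between 0.465% and 0.935% in all 5 libraries. The upstream side gave 38.5% and 22.9% of the promoter's calls in *Tet2*+/+ but 12.7%, 17.2% and 12.5% in *Tet2*-/-. With each dyad weighted equally the difference was 0.45 points, so the lower level moved with where the calls fell. The plot of levels by region shows this promoter beside the others.

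**Figure D1:**
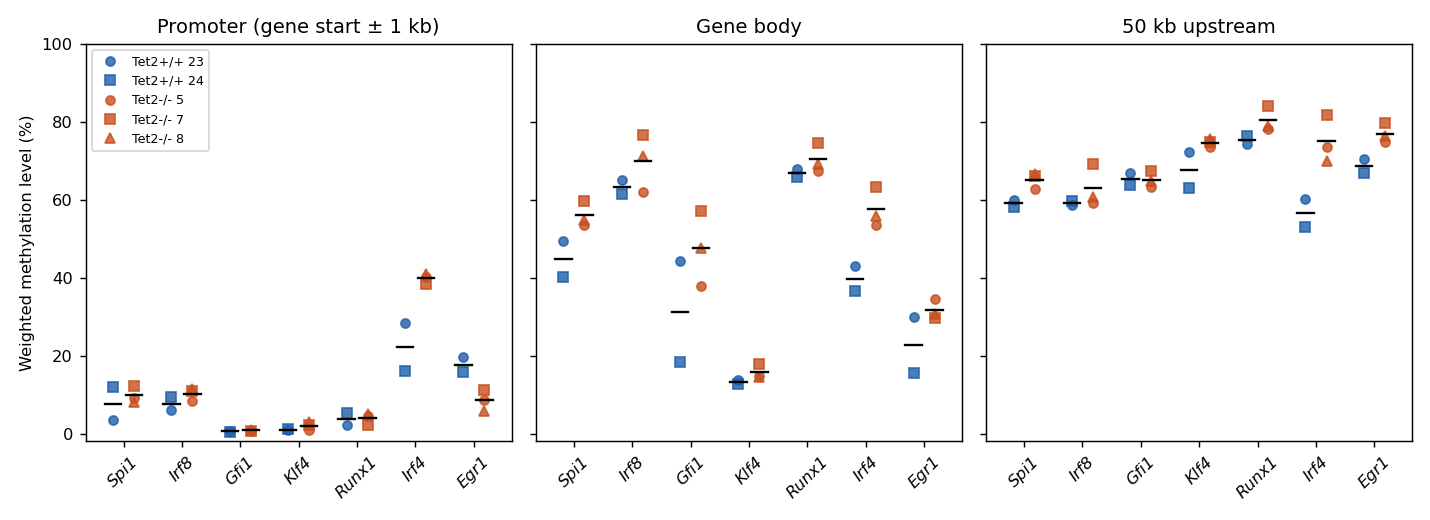
Weighted methylation level (percent, y axis) of the promoter, gene body and 50 kb upstream of each gene (x axis), with 1 point per library, blue for *Tet2*+/+ and orange for *Tet2*-/-, and a bar at the group mean. Promoters lie low except *Irf4*, and *Irf4* is the gene whose *Tet2*-/- libraries lie above both *Tet2*+/+ libraries in all 3 regions by the widest margins.

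At other annotated starts, over 1 kb from the gene start, the CpG island of *Runx1* stayed near 0. Around the transcript starting 128821 bp into the gene, levels were 0.998% and 1.23% in *Tet2*+/+ and 0.584%, 0.454% and 1.18% in *Tet2*-/- (489 to 685 calls). Around an overlapping start 130024 bp into the gene they were 4.51% and 2.97% against 1.24%, 2.03% and 1.21%, lower in all 3 *Tet2*-/- libraries by 2.25 points on average. A start of *Gfi1* 1693 bp into the gene was at 32.1% in *Tet2*+/+ library 23 but 0.609% in library 24, and at 18.4%, 39.4% and 31.9% in *Tet2*-/-. The *Irf8* start 2281 bp into the gene was methylated throughout, at 87.3% and 87.5% against 67.1%, 91.0% and 92.3%. The *Egr1* start 1384 bp into the gene was at 6.36% and 1.28% against 3.23%, 2.87% and 6.86%.

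Gene bodies rose at 4 of the 7 genes, *Irf4*, *Gfi1*, *Spi1* and *Egr1*, and fell at none, where edgeR called 15.5% of 20715 gene bodies higher in *Tet2*-/-. Of 3221 bodies called in either direction over all genes, 3207 were higher. The body of *Irf4* was at 42.9% and 36.6% in *Tet2*+/+ and 53.6%, 63.3% and 55.9% in *Tet2*-/-, a rise of 17.8 points without overlap (39.8% ± 4.47, SD, n = 2, against 57.6% ± 5.10, n = 3). Its adjusted p in edgeR's test across all bodies was 0.001. The body of *Spi1* was at 49.5% and 40.1% against 53.6%, 59.6% and 54.7%, a rise of 11.1 points without overlap (edgeR adjusted p = 0.0373). Groups that do not overlap in this direction were found at 46% of all bodies, and in the opposite direction at 1.46%, which none of the 7 showed.

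In *Gfi1* and *Egr1* the groups overlapped, and *Tet2*+/+ library 24 lay far below the other 4 libraries. The body of *Gfi1* was at 44.3% and 18.3% in *Tet2*+/+ and 37.9%, 57.2% and 47.6% in *Tet2*-/- (difference 16.3 points, edgeR adjusted p = 0.00198). The body of *Egr1* was at 29.8% and 15.4% against 34.6%, 29.7% and 30.8% (difference 9.08 points, edgeR adjusted p = 0.0474). Without library 24 the adjusted p was 0.901 for *Gfi1*, 0.925 for *Egr1*, 0.717 for *Spi1* and 0.23 for *Irf4*, so none of the 7 passed, where 0.424% of all bodies did. This fit had 1 *Tet2*+/+ library, assumed to vary like the others, and its differences were 3.30 points for *Gfi1*, 1.91 for *Egr1*, 6.43 for *Spi1* and 14.7 for *Irf4*. Without *Tet2*-/- library 5, 2 bodies passed (8.76% of all), and 2 without library 8 (16.1% of all). Limma called 0 of the 7 bodies (0.565% of all), with *Irf4* lowest at an adjusted p of 0.0864.

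After subtraction of the genome-wide level of each library, the differences of the 4 bodies were 11.3 points for *Irf4*, 9.76 for *Gfi1*, 4.61 for *Spi1* and 2.56 for *Egr1*.

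The other 3 bodies did not pass. *Irf8* was at 65.2% and 61.5% in *Tet2*+/+ and 62.0%, 76.7% and 71.3% in *Tet2*-/- (edgeR adjusted p = 0.178). *Klf4*, a short gene inside a CpG-rich domain, was at 13.6% and 12.8% against 14.7%, 17.8% and 14.6% (edgeR adjusted p = 0.475). *Runx1*, whose body spans 224684 bp and 3276 dyads, was at 67.9% and 65.9% against 67.4%, 74.6% and 69.3% (edgeR adjusted p = 0.612). Over the 7 bodies the median difference was 9.08 points, beside 4.95 points over all bodies. The value of 9.08 is that of *Egr1*, which was 1.91 points without *Tet2*+/+ library 24. That library was the lower of the *Tet2*+/+ libraries in all 7 bodies, so each difference was smaller without it. The median over all bodies without that library is not given here.

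In the 50 kb upstream taken as 1 region, *Irf4* again differed most, at 60.3% and 53.1% in *Tet2*+/+ and 73.6%, 81.8% and 70.1% in *Tet2*-/- (18.5 points). *Egr1* was at 70.5% and 66.9% against 74.7%, 79.7% and 76.4%, and *Klf4* at 72.3% and 63.1% against 73.7%, 74.8% and 75.7%. *Spi1* was at 59.9% and 58.2% against 62.7%, 66.2% and 66.8%, and *Runx1* at 74.2% and 76.3% against 78.1%, 84.2% and 79.0%. In these 5 genes every *Tet2*-/- library lay above both *Tet2*+/+ libraries, but after subtraction of the genome-wide level of each library the differences were -0.37 points for *Spi1*, -1.37 for *Runx1*, 0.51 for *Klf4*, 1.68 for *Egr1* and 11.9 for *Irf4*. Over all genes 57.9% of upstream regions were without overlap in this direction, and 0.264% in the other, which none of the 7 showed. *Irf8* (58.7% and 59.6% against 59.2%, 69.2% and 60.7%) and *Gfi1* (66.8% and 63.7% against 63.4%, 67.4% and 64.8%) overlapped. The exact permutation p of these regions was 0.1 to 1.

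Among the 1 kb windows, 25 of the 549 with at least 20 calls in every library passed the test, and in all 25 the mean level was higher in *Tet2*-/-. Groups did not overlap in 187 windows (34.1%) that were higher in *Tet2*-/-, against 35.1% of all, and in 9 (1.64%) that were lower, against 1.98%. The share called was 4.55% of the genes' windows, where edgeR called 2.97% of 1172039 windows of all protein-coding genes. Of the 25, 12 lay upstream (of 266 tested) and 13 in gene bodies (of 283), and 9 belonged to *Irf4*, 6 to *Egr1*, 5 to *Spi1*, 2 to *Irf8* and 1 each to *Gfi1*, *Klf4* and *Runx1*. By the mean of both group means, which the change itself helps to set, 21 of them lay among the 203 windows at 20% to 80%, where the median difference was 12.3 points (11.4 points over all windows of that class). Of 51 windows under 20%, 2 passed, with a median difference of 0.72 points (1.2 over all), and 2 of 295 at 80% and over, with a median of 3.82 points (3.81 over all). The share called over all windows of each class is not given here, so these counts by class have no comparison. Without *Tet2*+/+ library 24, which left 1 *Tet2*+/+ library, assumed to vary like the others, 2 of the 25 windows passed, upstream of *Runx1* and of *Irf8*. The differences of the 25 windows were then 5.62 to 47.1 points with a median of 29.7, against 36.5 with all libraries, and the smallest was that of *Gfi1*. That of the upstream *Irf8* window widened from 24.6 to 38.8 points, as library 24 was its higher *Tet2*+/+ library. Over all windows the share called went from 2.97% to 0.252% without that library. Without *Tet2*-/- library 7 or 8, 12 and 14 windows passed, of which 11 and 13 were among the 25. Of all windows, 1.47% and 1.9% then passed. When the median of each library was subtracted in limma, which shifted the median window by 0.73 on the log2 ratio scale, 3 windows passed, where 0.304% of all windows did. These were the window upstream of *Runx1* and a body window of *Egr1*, both still higher, and a window 130 to 131 kb into *Runx1*, which was lower. That window was at 7.37% and 4.43% in *Tet2*+/+ and 2.01%, 2.42% and 0.893% in *Tet2*-/-, and is named after its values were seen. Over all windows 99.7% of calls were higher in *Tet2*-/- without this centring and 89.2% with it.

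**Figure D2:**
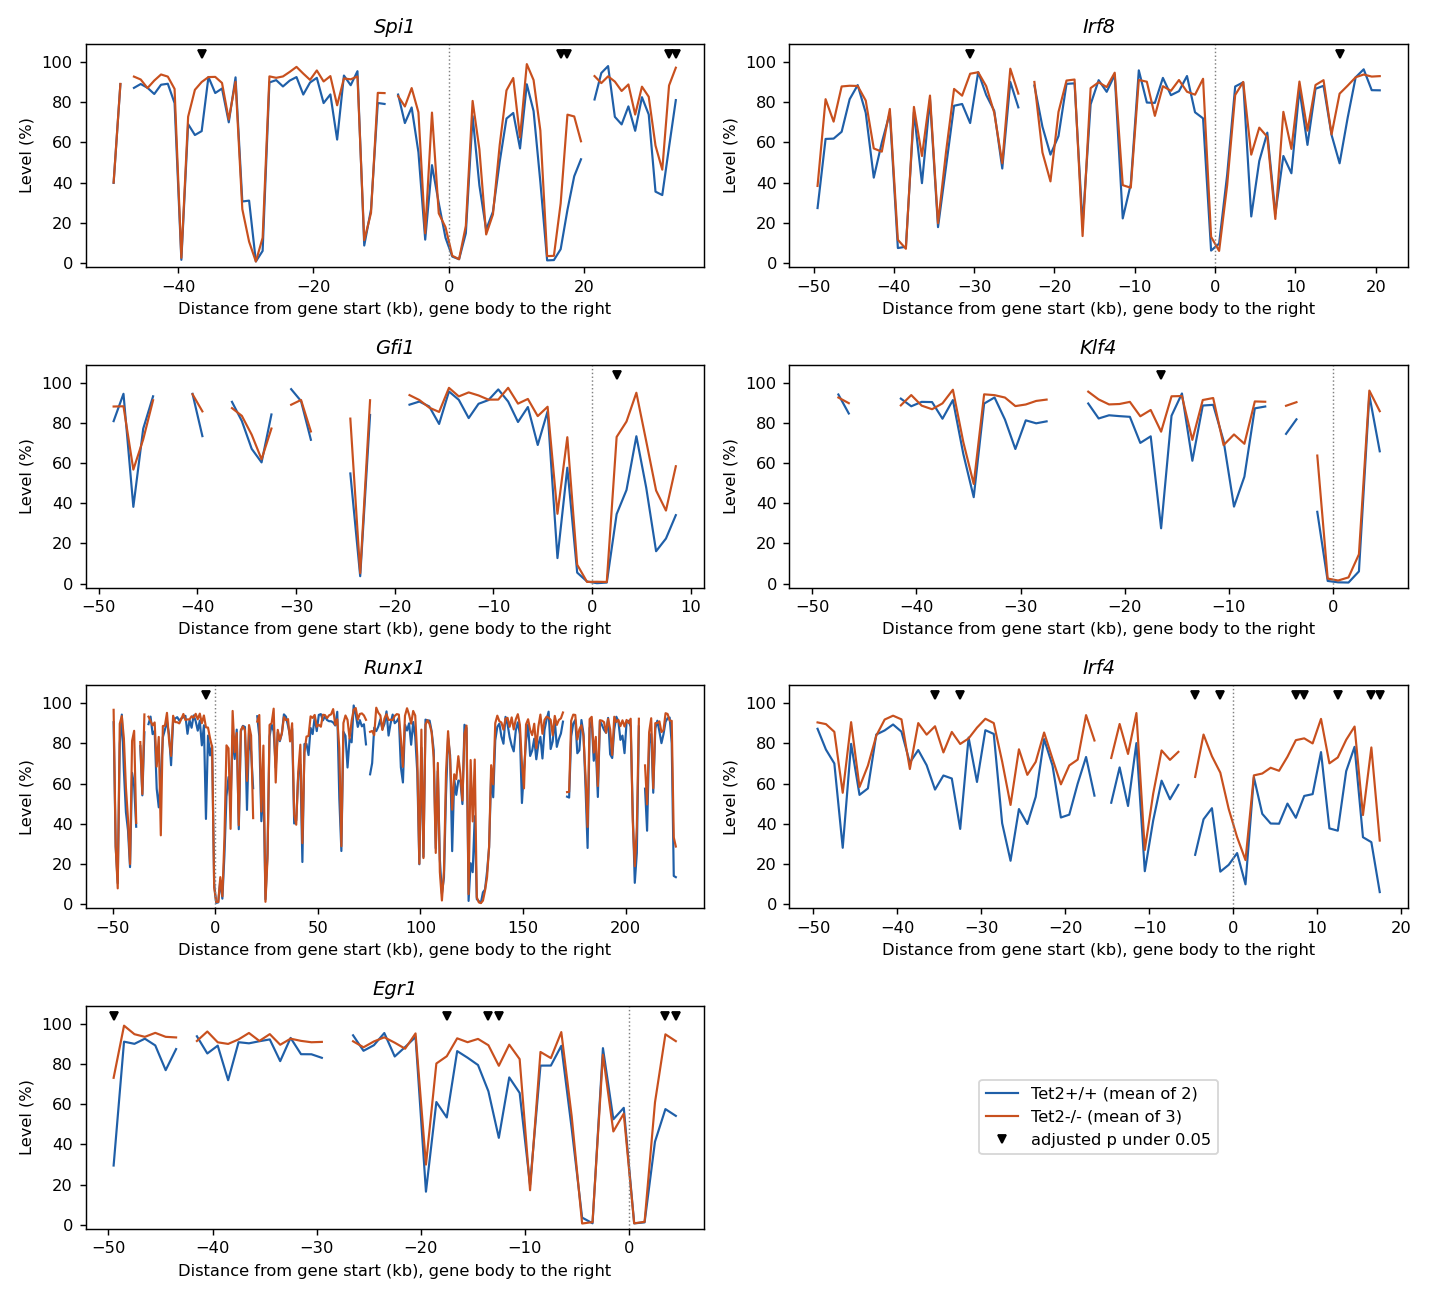
Mean methylation level per 1 kb window (percent, y axis) against distance from the gene start in the direction of transcription (kb, x axis) for each gene, for *Tet2*+/+ (blue, mean of 2) and *Tet2*-/- (orange, mean of 3), with triangles over windows that passed the test. Gaps are windows with under 10 calls in a library. The lines part over most of the *Irf4* locus and lie closer over most of *Runx1*, and both groups dip to near 0 at the same places at *Gfi1*, *Klf4*, *Runx1* and *Egr1*.

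At *Irf4*, windows that rose lay both upstream and in the body. In 39 of its 57 tested windows (68.4%) every *Tet2*-/- library was above both *Tet2*+/+ libraries, against 35.1% of all windows. The median difference was 16.5 points, against 5.69 over all windows. These sets differ in level, as 41 of the 57 lay at 20% to 80%, against 502150 of 1172039 windows of all genes. Within that class the median difference was 23.3 points at *Irf4* and 11.4 over all windows. The 4 upstream windows that rose lay 35 to 36, 32 to 33, 4 to 5 and 1 to 2 kb from the start, in sequence with no annotated gene. The last of these, printed in part above, was at 28.8% and 3.57% in *Tet2*+/+ and 50.6%, 85.7% and 60.0% in *Tet2*-/- (edgeR adjusted p = 0.00483). The window 4 to 5 kb upstream was at 26.4% and 22.7% against 64.3%, 71.4% and 54.4% (edgeR adjusted p = 0.0201), and the window 32 to 33 kb upstream at 43.9% and 31.0% against 72.2%, 92.4% and 74.7% (edgeR adjusted p = 0.00705). In the windows at 1 to 2, 4 to 5 and 32 to 33 kb the lowest *Tet2*-/- library was over 20 points above the higher *Tet2*+/+ library. The margin was narrower in the 300 bases with the most CpGs of the window 35 to 36 kb upstream. Levels there were 56.25% and 30.4% against 69.2%, 92.9% and 100% (13 to 28 calls).

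Within the *Irf4* body, the windows 7 to 8, 8 to 9, 12 to 13, 16 to 17 and 17 to 18 kb from the start rose by 25.6 to 47.2 points. The window 16 to 17 kb in, over the 3′ part of the gene, was at 41.3% and 20.4% in *Tet2*+/+ and 75.9%, 90.4% and 67.7% in *Tet2*-/- (31 to 83 calls, edgeR adjusted p = 0.00449). The neighbouring window at the end of the gene was low in *Tet2*+/+, at 10.2% and 1.85%, and was at 28.4%, 51.4% and 15.2% in *Tet2*-/- (54 to 81 calls, edgeR adjusted p = 0.0399). The window with the smallest difference without overlap was the one just after the start, at 27.9% and 23% against 31.5%, 30.4% and 38.2%. *Tet2*-/- library 7, the library of highest genome-wide level, was the highest of the 5 in most windows of the profile by library.

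**Figure D3:**
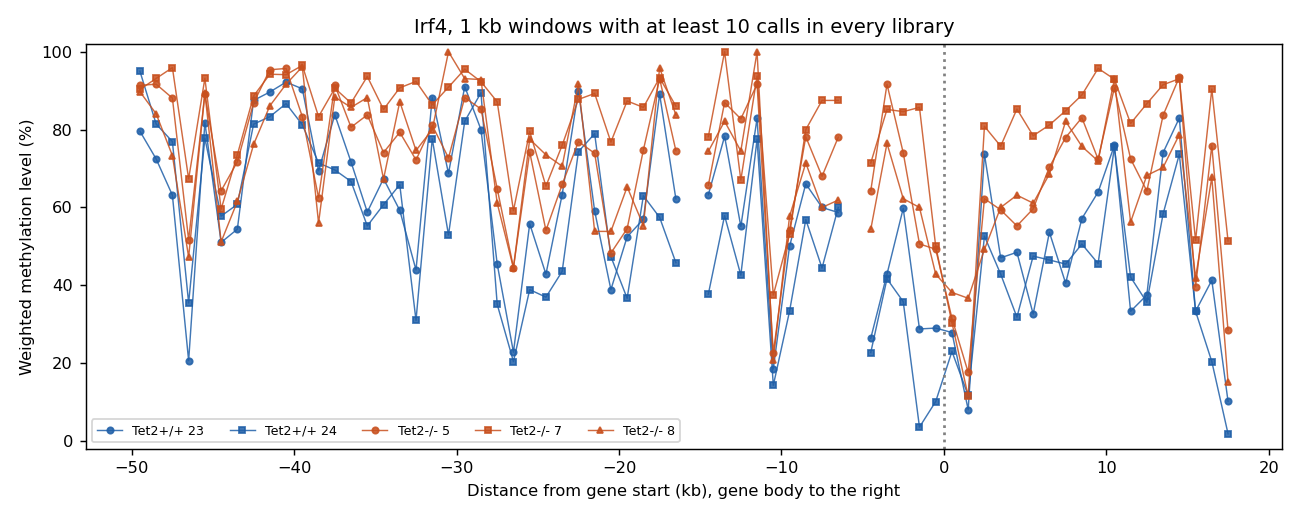
Methylation level (percent, y axis) of each 1 kb window of *Irf4* with at least 10 calls in every library against distance from the gene start (kb, x axis), with 1 line per library, blue for *Tet2*+/+ 23 and 24 and orange for *Tet2*-/- 5, 7 and 8. Orange lines lie above blue lines over most of the 50 kb upstream and the body, and all 5 dip 1 to 2 kb after the start and 10 to 11 kb upstream. The groups do not meet at the upstream dip: over 9 to 11 kb upstream they were at 36.5% and 24.6% against 39.4%, 45.3% and 40%.

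At *Spi1*, 4 of the 5 windows lay in the body, downstream of the usual start. Just downstream of that start lies a valley, 14 to 17 kb from the annotated gene start, at 2.61% and 2.98% in *Tet2*+/+ and 7.96%, 14.5% and 7.59% in *Tet2*-/-. The downstream edge of the valley rose: the window 16 to 17 kb was at 3.70% and 10.0% against 22.1%, 39.2% and 27.8% (54 or more calls in each library, edgeR adjusted p = 0.0315). The next window, 17 to 18 kb, was at 34.3% and 18.5% against 56.3%, 86.8% and 78.4%, a rise of 47.4 points (37 to 81 calls, edgeR adjusted p = 0.00392). Both windows at the 3′ end of the gene also rose, by 30.7 and 16.1 points (12.3 and 17.9 without *Tet2*+/+ library 24), and the fifth window lay 36 to 37 kb upstream, inside *Rapsn*. No window of *Spi1* around the annotated start, where levels of 2.50% to 5.26% held in all 5 libraries over the first 1 kb, passed the test.

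Calls at *Spi1* were fewer in *Tet2*-/- library 5 than the depth of that library gives elsewhere. Over 250 kb on each side of the gene, calls per dyad relative to the autosomes of the library were 0.779 there and 1.10 to 1.21 in the other 4 libraries. The reduced coverage spanned chr2:60000001-165800000, or 105.8 Mb, at a median of 0.668 of the median library, where the other libraries were at 0.997 to 1.01. None of the other 6 genes lay in a region of this kind. In *Spi1*, library 5 was the lowest of the *Tet2*-/- libraries in the body and the 50 kb upstream. Without it the body difference was 12.3 points, with an edgeR adjusted p of 0.102. Of the 5 windows 4 still passed, all but the one upstream. Without *Tet2*-/- library 7, and likewise without library 8, only the window 17 to 18 kb from the annotated start passed among the 5.

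**Figure D4:**
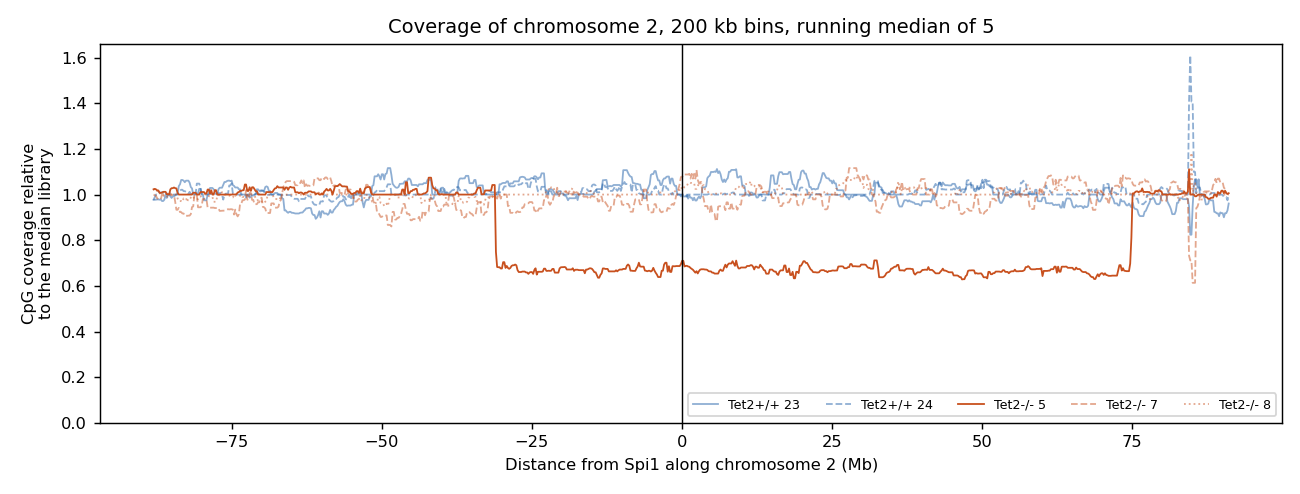
CpG coverage of chromosome 2 relative to the median library (y axis, running median of 5 bins of 200 kb) against the distance from *Spi1* (Mb, x axis, black line at the gene), with 1 line per library. *Tet2*-/- library 5 drops to about 0.668 over 105.8 Mb around the gene and returns to 1 on either side, while the other 4 libraries stay near 1 apart from a short spike near the end of the chromosome.

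*Egr1* gained methylation in 6 windows, 2 of them at its 3′ end. The window 3 to 4 kb into the gene was at 72.4% and 42.8% in *Tet2*+/+ and 92.3%, 97.0% and 95.1% in *Tet2*-/- (82 to 235 calls, edgeR adjusted p = 0.000353). The last full window was at 68.4% and 40.0% against 83.2%, 97.1% and 94.0% (57 to 107 calls, edgeR adjusted p = 0.00426). Both rose by 37.2 points, or by 22.4 and 23 without *Tet2*+/+ library 24. Upstream, windows 12 to 13, 13 to 14 and 17 to 18 kb from the start, within *Reep2*, rose by 35.9, 22.9 and 30.5 points (21.5, 13.3 and 24.6 without *Tet2*+/+ library 24), and a window 49 to 50 kb upstream, within *Kdm3b*, rose by 43.7 points. None of the windows within *Reep2* passed without *Tet2*-/- library 7, and none without library 8. The window 13 to 14 kb upstream also did not pass under limma. The first 2 kb of the gene and the stretch 3 to 5 kb upstream were unmethylated in both groups. The former was at 1.21% and 0.823% against 1.34%, 0.894% and 1.11%, and the latter at 2.48% and 2.26% against 0.578%, 1.36% and 0.769%.

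*Runx1*, the largest locus, had 1 of 244 tested windows past the threshold. That window, 4 to 5 kb upstream of the distal start, had the smallest p of all 549. It was at 40.9% and 43.9% in *Tet2*+/+ and 84.9%, 93.7% and 85.5% in *Tet2*-/-, a rise of 45.6 points (166 to 285 calls, edgeR adjusted p = 0.00029). It also passed without each library in turn (edgeR adjusted p = 0.00022 to 0.0132). The windows beside it were methylated in both groups, at 79.5% to 89.6% on the side of the gene and 88.6% to 96.6% on the other. The largest loss of the locus, and of all 7 genes, was 26 to 27 kb upstream, at 52.1% and 75.6% against 26.2%, 42.7% and 34.0% (difference -29.6 points, edgeR adjusted p = 0.123).

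At *Klf4* the window 16 to 17 kb upstream rose, at 41.7% and 13.3% in *Tet2*+/+ and 78.7%, 84.5% and 63.6% in *Tet2*-/- (22 to 61 calls, edgeR adjusted p = 0.00531). Its largest loss without overlap was 41 to 42 kb upstream and reached 3.35 points (edgeR adjusted p = 0.737). At *Irf8* a window 30 to 31 kb upstream was at 55.4% and 83.8% against 92.6%, 94.5% and 95.5% (edgeR adjusted p = 0.0168), and a window 15 to 16 kb into the body at 48.4% and 50.8% against 73.3%, 89.5% and 90.0% (edgeR adjusted p = 0.0115). Both *Irf8* windows still passed without *Tet2*-/- library 5 or library 7, and neither passed without library 8. The *Tet2*+/+ libraries of the upstream window stood far apart. The largest loss of *Irf8* without overlap was 21 to 22 kb upstream, with a difference of -12.8 points (edgeR adjusted p = 0.571). The upstream windows of *Irf8* all lie within the annotated gene model *Gm20388*.

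At *Gfi1* the 1 window past the threshold lay 2 to 3 kb into the gene and had overlapping groups. It was at 67.4% and 1.76% in *Tet2*+/+ and 46.1%, 89.6% and 83.3% in *Tet2*-/- (197 to 447 calls, edgeR adjusted p = 0.0446), so the *Tet2*+/+ libraries stood further apart than the groups. Without library 24 the adjusted p was 0.907. The following windows were of the same kind, at 76.7% and 16.5% against 65.1%, 88.0% and 88.9%, and at 96.2% and 50.5% against 94.1%, 96.1% and 94.7%. The largest gain without overlap was 5 to 6 kb into the gene (23.1 points, edgeR adjusted p = 0.198), and the largest loss 30 to 31 kb upstream (-7.76 points, edgeR adjusted p = 0.442).

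**Figure D5:**
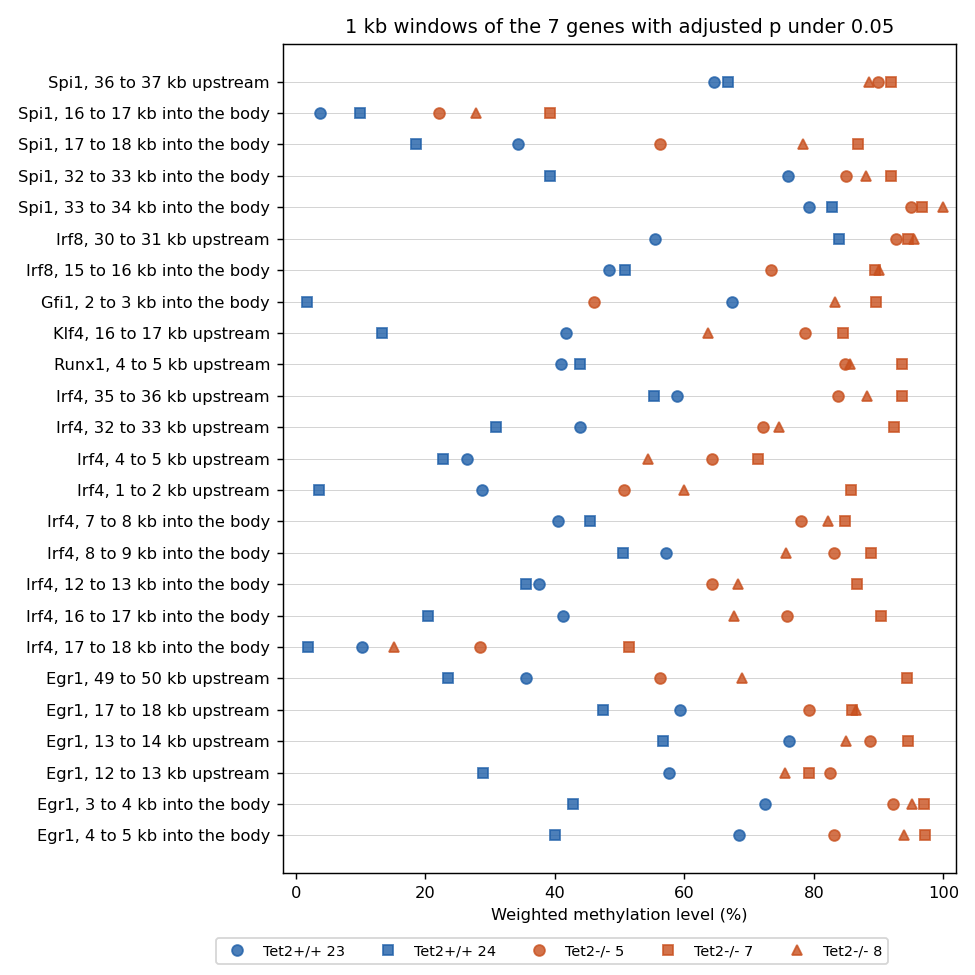
Methylation level (percent, x axis) in each library of the 25 windows of 1 kb that passed the test, named by gene and distance from its start (y axis), blue for *Tet2*+/+ and orange for *Tet2*-/-. Orange points lie to the right of both blue points in 24 windows, and in the *Gfi1* window a blue point lies among them. The windows were chosen for a difference between the groups, so this separation is no result of its own. The share separated among all windows that passed is not given here.

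Windows of low methylation, under 50% as the mean of both group means, numbered 117 of the 633 in which no library had under 10 calls. They were 45 of 268 at *Runx1*, 22 of 81 at *Spi1*, 16 of 70 at *Irf8*, 11 of 66 at *Irf4*, 10 of 49 at *Gfi1*, 7 of 52 at *Egr1* and 6 of 47 at *Klf4*. The longest run, 127 to 134 kb into *Runx1* around the proximal start (7 windows, 267 dyads), was at 5.19% and 4.37% in *Tet2*+/+ and 2.29%, 5.81% and 2.93% in *Tet2*-/-. The run at the distal *Runx1* start (from 1 kb upstream to 5 kb into the gene) was at 5.67% and 9.49% against 11.9%, 10.7% and 9.16%. Together these windows formed 63 runs, of which 12 were higher in all *Tet2*-/- libraries, 4 lower in all and 47 overlapping. Over the runs of all genes, 37.2% were higher in all *Tet2*-/- libraries and 2.42% lower in all. A further run inside *Runx1* lay at 24 to 26 kb and was at 17.7% and 7.34% against 15.5%, 10.1% and 6.30%, in an intron. The runs at the starts of *Gfi1* (0.416% to 1.74%) and *Klf4* (2.39% to 11.9%) also overlapped between groups. A run 27 to 31 kb upstream of *Spi1*, over *Psmc3*, stayed between 4.80% and 7.33%, and a run 38 to 40 kb upstream of *Irf8* between 4.19% and 22.2%. Runs higher in all *Tet2*-/- libraries lay at *Spi1* (2 of 9), *Gfi1* (2 of 5) and *Runx1* (1 of 23), and runs lower in all at *Runx1* (3) and *Egr1* (1 of 5). At *Irf4* each of its 7 runs was higher in all *Tet2*-/- libraries, and the run at its start (2 kb on each side) was at 21.3% and 12.9% against 31.3%, 30% and 40.7%.

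Genes related to the 7 were described in 3 lists. Of 20 paralogs, such as *Spib*, *Irf1* and *Runx2*, 1 promoter and 4 bodies rose, among them the bodies of *Spic*, *Egr3* and *Egr4*, where 1.07% of all promoters and 15.5% of all bodies were called. *Egr3*, a close relative of *Egr1*, was at 12.6% and 10.6% against 31.7%, 24.4% and 22.5% (edgeR adjusted p = 2.62e-05). *Egr4* was at 21.0% and 9.71% against 49.8%, 21.2% and 42.3% (edgeR adjusted p = 2.97e-05), and *Spic*, an ETS factor of red pulp macrophages, at 72.4% and 69.3% against 81.9%, 89.5% and 79.7% (edgeR adjusted p = 0.0217). Of 20 partners and cofactors, such as *Cbfb*, *Cebpb* and *Kdm1a*, 1 promoter rose, that of *Cebpe*, a factor of late granulocytic maturation (2.92% and 2.43% against 9.59%, 21.5% and 27.0%, edgeR adjusted p = 0.0409). Bodies rose at 3 of them, among them *Cebpe* and *Id2*. *Cebpe* went from 8.42% and 2.53% to 18.1%, 43.0% and 62.5% (edgeR adjusted p = 7.26e-08). *Id2*, an inhibitor of helix-loop-helix factors, was at 3.62% and 4.19% against 16.0%, 10.6% and 13.5% (edgeR adjusted p = 5.17e-05). Of 15 target genes such as *Csf1r* and *Cybb*, no promoter passed, and the bodies of *Ncf1* and *Mpo* rose, the latter with overlapping groups (15.0% and 9.74% against 14.7%, 48.5% and 40.9%). None fell in any list, where over all genes 206 of 209 promoters called and 3207 of 3221 bodies called were higher. Median promoter differences were 1.35, 0.13 and 3.67 points for the paralogs, the partners and cofactors and the targets, beside 2.22 over all promoters. Median body differences were 7.02, 3.03 and 4.71 points, beside 4.95.

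Lists of cell markers had promoter medians higher in *Tet2*-/- by 5.9 points for 7 myeloid genes, 1.63 for 3 genes of all blood cells, 10.8 for 4 T cell, 10.7 for 4 B cell and 12.8 for 4 erythroid genes, 7.71 for 2 mast cell and basophil genes and 6.22 for 4 genes of other tissues. The median was lower by a difference of -8.17 points for 2 megakaryocyte genes. Over all promoters the median was higher by 2.22 points, and over promoters at 20% to 80% by 8.31 points. Of the marker promoters 1 passed the test, that of *Hba-a1* (44.4% and 38.5% against 88.6%, 86.1% and 85%, edgeR adjusted p = 0.0409), a gene with a near-identical copy, to which its reads may be assigned. Bodies rose at 2 of the 7 myeloid genes, 3 of the 4 T cell genes, 1 of the 4 B cell genes, 1 of 3 erythroid genes tested, 1 of 2 megakaryocyte genes and 2 of the 4 genes of other tissues, and at none of the others, beside 15.5% of all bodies. Their part in the levels of the 7 genes was not tested.

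The gene body most like each of the 7 in level over the 5 libraries, by the smallest root mean square difference among 20714 bodies, was *Kcnj11* for *Spi1* (1.2 points), *Renbp* for *Irf8* (1.65), *Gm3099* for *Gfi1* (4.57), *Rpl7a* for *Klf4* (0.915), *Xxylt1* for *Runx1* (0.36), *Alx4* for *Irf4* (1.99) and *Mesp2* for *Egr1* (1.64). *Gfi1*, with library 24 far below the rest, was the member with the least close match.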

How the data were processed

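CpG methylation was profiled by WGBS in AML blasts sorted from bone marrow. DNA was bisulfite-converted and libraries were made by random priming of the converted strands and sequenced on a NextSeq 500. Per the submitters' processing notes, the tools included Trim Galore 0.4.3, FastQC 0.11.7, Bowtie2 and Bismark 0.19.1. The authors deposited, for each library, raw counts, in whole numbers, of calls read as methylated or not at each cytosine of a CpG, without normalization or pooling of libraries.

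Counts of both strands were added per dyad on the autosomes and X, then per region (GENCODE vM21, GRCm38). All dyads on the chromosomes of the 7 genes were CG in the reference. Regions needed at least 20 calls in every library. Methylated and unmethylated counts were compared with the quasi-likelihood test of edgeR 4.0.16 (R 4.3.3) with library effects, over all regions of a kind, with Benjamini-Hochberg adjustment and a threshold of 0.05. The steps were tested on simulated data. Single levels were compared by a two-sided exact permutation test over 10 splits, whose smallest p is 0.1, so that no single level could reach 0.05. Alternatives were limma 3.58.1 on log2 ratios of methylated to unmethylated counts (2 added to each) with and without centring on library medians, the likelihood ratio test, other coverage minimums and promoter widths, thinning, and leaving out each library. Tables were handled with Python 3.11.15, numpy 2.4.6 and pandas 2.3.3, and plots drawn with matplotlib 3.10.9.

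The 7 genes and the lists were chosen with earlier results of these data known. Named windows were those past the threshold and, where fewer than 3 of a gene passed, its largest gain and loss without overlap. Promoter sequences were found for 5 of the 7 genes in the RefSeq table. Values of 2 listed genes and of 1 sequence are not reported here.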

Additional observations from a re-analysis of the deposited data

How the results depend on the processing

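No paired analysis was possible because the groups share no replicate numbers. With 2 and 3 leukemias, and 2.96 to 5.19 calls per dyad, a window of few CpGs had little power, and the cause of the changes given here was not tested. Promoters past the threshold stayed at 0 except with 2000 bp on each side (1, *Irf4*), and at 0 to 0 without 1 library. The count of gene bodies, 4, was 0 under limma and centred limma and 0 to 4 without 1 library. The count of upstream windows, 12, was 1 under centred limma and 2 to 9 without 1 library. The count of body windows, 13, was 8 with a minimum of 50 calls, 2 under centred limma and 0 to 22 without 1 library. These counts include windows that did not pass with all libraries. Of all windows, 2.97% passed, 5.65% with a minimum of 50 calls, 0.304% under centred limma and 0.252% to 3.04% without 1 library. The 117 windows of low methylation became 77 below 30%, and 110 to 127 without 1 library. Over all regions, limma called 77 promoters and 117 bodies, and centred limma 9 promoters, 1 body and 3566 windows, while the likelihood ratio test called 1070 promoters.

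Some differences that had not passed changed sign. Under centred limma these were the promoters of *Irf8*, *Gfi1* and *Runx1* (adjusted p = 0.999, 0.839 and 0.768) and the bodies of *Klf4* and *Runx1* (0.652 and 0.597). In edgeR they were the promoters of *Irf8* and *Egr1* with 500 bp on each side (adjusted p = 0.74 and 0.773) and of *Runx1* after thinning (0.819) and with 2000 bp (0.852). Without 1 library the adjusted p in edgeR was 0.63 to 0.896 for the *Spi1* promoter and 0.755 to 0.935 for that of *Runx1*. After subtraction of each library's level, promoter differences were -4.39 points for *Spi1*, -3.90 for *Irf8*, -6.23 for *Gfi1*, -5.54 for *Klf4* and -6.32 for *Runx1*. Body differences were then -4.03 for *Klf4* and -3.01 for *Runx1*, upstream differences -0.37 for *Spi1*, -2.66 for *Irf8* and -1.37 for *Runx1*, and that at the inner *Egr1* start -6.02. These promoters, the *Klf4* body and the inner *Egr1* start were under 20% in every library. Over all promoters with a level under 20% the median difference was 0.827 points, so a negative value there is not a loss of methylation. With dyads called in all 5 libraries the upstream difference of *Gfi1* was 1.49 points. As the mean of single dyads, it was 0.924 for *Gfi1* upstream, and -0.19 and 0.45 for the promoters of *Runx1* and *Egr1*. As the mean of both sides of the start, chosen after seeing the data as was the mean of single dyads outside promoters, the *Runx1* promoter gave -0.62. Without 1 library, differences ranged from -2.13 to 6.41 points at the *Spi1* promoter, -8.29 to 4.29 at the inner *Irf8* start, -1.61 to 1.44 upstream of *Gfi1*, -2.17 to 29.3 at the inner *Gfi1* start, -1.32 to 1.72 at the *Runx1* promoter and -2.04 to 3.04 at the inner *Egr1* start.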
